A study of Mus musculus with 20 samples.

Results

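Microglial identity is set by a small group of DNA-binding proteins, and 9 of their genes were followed here: Spi1, Irf8, Runx1, Cebpa, Cebpb, Mef2c, Sall1, Maf and Bhlhe41. They were listed by symbol, with earlier results of these data known though with no measured value in the rule, and make up 9 of the 39017 gene identifiers in the count table; each symbol had a row. Microglia and astrocytes had been sorted from the left forebrain, the side of the injury, of adult male mice, labelled C57BL/6 and given as C57BL/6J in the study's methods, and their RNA was sequenced. Tissue was taken 7 days after lateral fluid percussion injury (FPI), in which a pulse of fluid strikes the exposed dura. Sham mice shared the craniectomy, the anesthesia and the connection to the device, but received no pulse, so that surgery is common to all groups. Microglia were gated as CD11b+ cells with intermediate CD45, and astrocytes by the surface antigen ACSA-2, which gave sham microglia, FPI microglia, sham astrocytes and FPI astrocytes with 5 libraries each. Levels are given as CPM, a gene's count relative to the library's total on the scale of TMM factors over the 20 libraries.

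PU.1, the product of Spi1, is the pioneer factor of the myeloid lineage, and microglia do not form without it. It opens enhancers together with partners that differ between macrophages of different organs, among them IRF8, RUNX1, the C/EBP proteins and the MEF2 proteins. In the brain, TGF-beta signalling and a neural environment add SALL1, a zinc finger protein that among macrophages is nearly private to microglia, and the large MAF protein c-MAF, while BHLHE41 is a basic helix-loop-helix repressor expressed in several tissue macrophages. Microglia that leave the homeostatic state after injury or in disease are known to lower many of the genes that these factors maintain, which makes the factors themselves a natural question for the comparison of FPI with sham.

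On GRCm38 the members lie at chr2:91082390-91115756 (Spi1), chr8:120736358-120756694 (Irf8), chr16:92601466-92826149 (Runx1), chr7:35119293-35121928 (Cebpa), chr2:167688915-167690418 (Cebpb), chr13:83504034-83667080 (Mef2c), chr8:89027235-89044162 (Sall1), chr8:115682942-115707794 (Maf) and chr6:145858243-145865558 (Bhlhe41), and reads over their exons were counted. Antisense genes overlap exons of Maf and Runx1 but had 21 and 5 reads in all 20 libraries together. Exons of Cebpa and Bhlhe41 share 51 and 1280 bases with genes on the opposite strand that have no row in the count table.

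Total counts ran from 5623349 to 13110857 per library. The summed level of 12 microglia markers was 21350 to 34367 CPM in the microglia libraries and 38.9 to 224 CPM in the astrocyte libraries. That of 10 astrocyte markers was 293 to 640 CPM in microglia and 10507 to 32915 CPM in astrocytes, so both labels held for these 2 lists. The astrocyte libraries were not free of other cells. In them 8 oligodendrocyte markers summed to 1675 to 18020 CPM in sham and 3255 to 11337 CPM in FPI. In sham astrocyte library 4 that sum, 18020 CPM, was above the 10507 CPM of its astrocyte markers. FPI astrocyte library 5 is named like a microglia library, with the same animal number as FPI astrocyte library 2. Its title and cell type label were followed, and its astrocyte markers summed to 15846 CPM against 224 CPM for the microglia markers. By these numbers 3 animals gave libraries of both cell types, and fits over both cell types took all libraries as independent. The microglia libraries carry names of 2 series, with the suffix M in replicates 1 to 3 and J-A in replicates 4 and 5 of either group. T, NK and B cell markers were at 0 in all 10 microglia libraries. Of the 6 monocyte markers in the count table Ly6c2 was at 0 there too. The 6 together summed to 23.5 to 60.2 CPM in sham and 39.1 to 199 CPM in FPI microglia. Border macrophage markers summed to 786 to 1346 CPM in the microglia libraries, most of it Stab1.

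In sham animals all 9 factors were higher in microglia than in astrocytes, and for each of them every microglia library lay above every astrocyte library. All 9 were called at an adjusted p below 0.1 with a log2 fold change above 0.6 (edgeR quasi-likelihood test, Benjamini-Hochberg adjustment over 15077 genes, largest adjusted p among the members 5.68e-07). The same rule called 60.9% of all genes tested, and 25.3% of all genes tested were called as higher in microglia. The groups did not overlap in 52.2% of all genes tested, and in 23.1% of all genes tested microglia lay above. The median log2 difference was 5.72 over the 9 factors against −0.15 over all genes tested. The factors differed widely in how far the cell types were apart, from a log2 difference of 1.53 for Bhlhe41 to one of 8.0 for Irf8, with Spi1 nearly without reads in astrocytes.

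Spi1 stood at one end. Sham microglia libraries 1 to 5 held 239.5, 202, 189.5, 178 and 190.1 CPM of Spi1. Of the sham astrocyte libraries, 4 had no Spi1 read and library 3 had 3 reads, a level of 0.31 CPM. Pooled over each group this was 8956 reads against 3, a ratio of 3092 at equal depth with a 95% interval of 1058 to 14994 that covers counting error only. The fitted log2 difference of 11.30 depends on the small count that edgeR adds and was not used as a size. Spi1 was the factor with the least astrocyte signal.

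Irf8, an interferon regulatory factor that pairs with PU.1, and Runx1, a runt-domain factor of early blood and microglia precursors, followed. Irf8 averaged 474 ± 23.5 CPM (SD, n = 5) in sham microglia and 1.87 ± 0.88 CPM in sham astrocytes, a log2 difference of 8.0 ± 0.49 (SE). Runx1 averaged 197 ± 13.5 CPM and 1.54 ± 1.05 CPM, a log2 difference of 6.99 ± 0.62. Maf, one of the large MAF leucine zipper factors, averaged 634 ± 65.1 CPM in sham microglia and 4.04 ± 1.54 CPM in sham astrocytes, with a log2 difference of 7.31 ± 0.31. The folds were 257 for Irf8, 127 for Runx1 and 158 for Maf.

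The C/EBP factors did not stand together. Cebpa, which encodes a basic leucine zipper factor of myeloid differentiation, averaged 367 ± 28.0 CPM in sham microglia and 6.97 ± 1.98 CPM in sham astrocytes, a 52.7-fold difference. Cebpb, its relative with a role in inflammatory gene expression, averaged 83.8 ± 11.2 CPM and 7.53 ± 3.04 CPM, an 11.1-fold difference. Cebpb shares 312 exonic bases with Tmem189 on the opposite strand, and the strand setting of the counting is not given in the sources used here. Its level, like that of Bhlhe41 with its 1280 shared bases, is therefore less certain than those of members without such an overlap.

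Sall1, Mef2c and Bhlhe41 kept a measurable astrocyte level. Sall1 read 119, 98.4, 69.2, 93.2 and 79.8 CPM in sham astrocyte libraries 1 to 5 against 1295, 1368, 1248, 1170.0 and 1346.5 CPM in sham microglia, which is 14.0-fold. Mef2c, a MADS box factor that is also used by neurons, endothelium and muscle, averaged 484 ± 40.9 CPM in sham microglia and 35.7 ± 19.4 CPM in sham astrocytes, which is 13.5-fold. Bhlhe41 read 166, 167, 200.5, 186 and 168 CPM in sham microglia and 90.0, 52.7, 62.5, 51.7 and 50.1 CPM in sham astrocytes. Bhlhe41 had the smallest difference of the members, 2.89-fold with a 95% interval of the log2 difference of 1.14 to 1.92, although the libraries of the cell types did not overlap. Among 42 other myeloid transcription factors 35 were tested in this contrast, 26 were called as higher in microglia and 4 as lower.

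**Figure D1:**
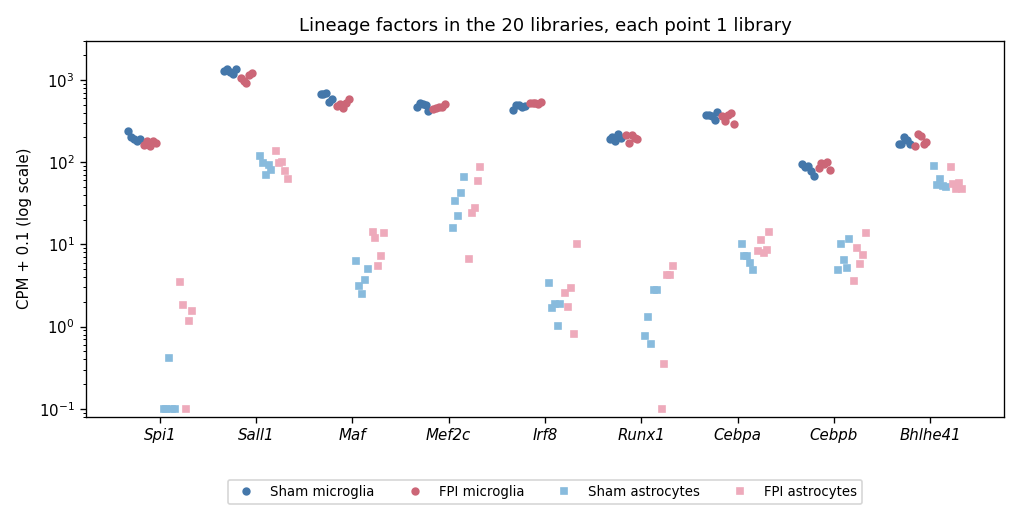
Level of each factor in the 20 libraries, in CPM plus 0.1 on a log scale; each point is 1 library, circles are microglia and squares are astrocytes, and the sham and FPI groups have separate colors. Every microglia point lies above every astrocyte point of the same gene, with the widest gap for Spi1 and the narrowest for Bhlhe41.

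The astrocyte level of each factor was set beside that of the 12 microglia markers, since sorted astrocytes can carry RNA of other cells. As a percentage of the level in sham microglia, the markers stood at 0.0195 to 0.52% in sham astrocytes, with a median of 0.0418%. Spi1 at 0.0313% and Irf8 at 0.394% lay within that range. Maf at 0.636% and Runx1 at 0.783% lay above it and above every one of the 12 markers. Cebpa at 1.90%, Sall1 at 7.15%, Mef2c at 7.38%, Cebpb at 8.98% and Bhlhe41 at 34.6% lay above them too, by more. Which cells the reads in the astrocyte libraries came from was not tested.

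Mef2c varied widely between the astrocyte libraries. It read 15.6, 33.5, 22.3, 41.6 and 65.4 CPM in sham and 6.48, 24.0, 27.6, 58.3 and 86.1 CPM in FPI astrocyte libraries 1 to 5. The summed level of 8 endothelial and pericyte markers in the same libraries was 589, 1911, 1062, 1667 and 3280 CPM in sham and 273, 1446, 1797, 2176 and 4177 CPM in FPI. The libraries lowest and highest in Mef2c, FPI libraries 1 and 5, were also the lowest and highest in these markers. This was not particular to vascular markers. The summed level of 6 markers of oligodendrocyte precursors was also lowest in FPI library 1, at 102 CPM, and highest in FPI library 5, at 1251 CPM. Runx1 was likewise lowest in FPI library 1, where it had no read, and highest in FPI library 5, at 5.42 CPM. The part of vascular cells or of oligodendrocyte precursors in the values of Mef2c and Runx1 was not tested.

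**Figure D2:**
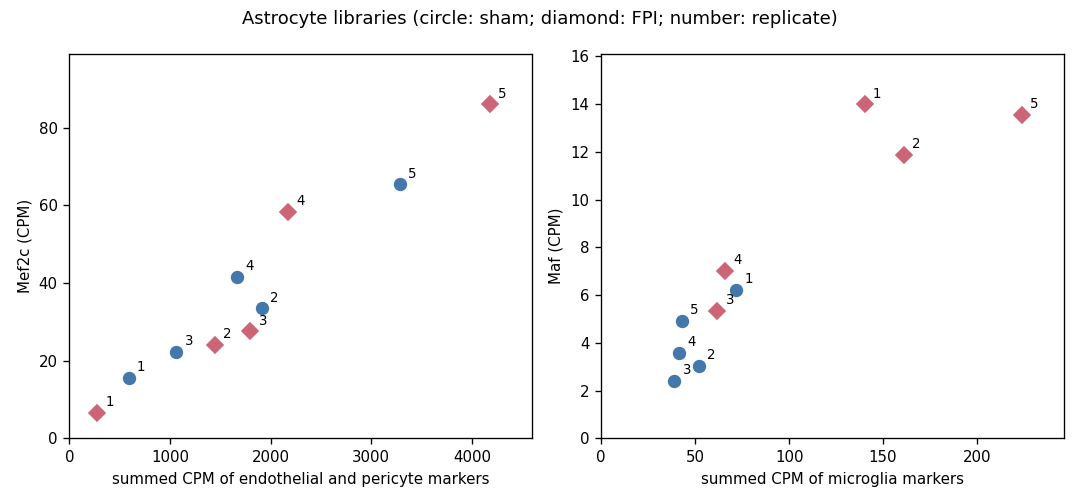
The 10 astrocyte libraries, circles for sham and diamonds for FPI, each with its replicate number. The left panel sets Mef2c (CPM) against the summed CPM of the endothelial and pericyte markers, and the right panel sets Maf (CPM) against the summed CPM of the microglia markers; on the left FPI libraries 1 and 5 are lowest and highest on both axes, and on the right FPI libraries 1, 2 and 5 stand apart at 11.9 to 14.0 CPM of Maf.

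Both ends of the range of specificity are shown as sequence for the members that the RefSeq promoter table of GRCm38.p6 holds. It holds 7 of the 9, without Spi1 and Maf. The window before the first of 2 listed starts of Irf8 is chr8:120736108-120736357 on the plus strand, and the window of Bhlhe41 is chr6:145865559-145865670 on the minus strand, 112 bases that lie outside the gene as GENCODE M21 annotates it. Capitals mark matches to the interferon-gamma-activated site (GAS) TTCNNNGAA, bound by STAT factors, in Irf8, and to the E-box CACGTG, bound by basic helix-loop-helix proteins such as BHLHE41 itself, in Bhlhe41.
Irf8: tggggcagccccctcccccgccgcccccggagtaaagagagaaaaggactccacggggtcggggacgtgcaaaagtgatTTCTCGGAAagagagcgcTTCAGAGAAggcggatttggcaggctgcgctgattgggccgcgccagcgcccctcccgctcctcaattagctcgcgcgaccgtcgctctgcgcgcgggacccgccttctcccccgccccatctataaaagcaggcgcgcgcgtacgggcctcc
Bhlhe41: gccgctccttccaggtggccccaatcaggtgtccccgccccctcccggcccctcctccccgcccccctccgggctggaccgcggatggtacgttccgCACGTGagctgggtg
Both motifs read the same on either strand and were searched in the 250 bases before each start. The GAS matches of Irf8 begin 171 and 153 bases before its start and do not overlap, and the E-box of Bhlhe41 begins 153 bases before its start. Of 32851 promoters in the table, 7.02% hold a GAS match and 6.02% hold this E-box in the same length, so neither is rare, and a match is a description of the letters only. G and C made up 67.2% of the Irf8 window and 75% of the Bhlhe41 window.

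Levels of different genes were compared per kilobase of merged exons (RPKM). Sall1 was the most abundant factor in sham microglia, at 244 ± 15.1 RPKM (SD, n = 5), followed by Cebpa at 139 ± 10.6 RPKM, and their library ranges did not overlap with each other or with the next. Maf at 77 ± 7.90, Spi1 at 74.2 ± 8.82, Irf8 at 67.2 ± 3.33 and Cebpb at 55.7 ± 7.48 RPKM formed a middle group in which neighbours overlapped. Mef2c at 30.8 ± 2.60 and Bhlhe41 at 26.4 ± 2.27 RPKM overlapped with each other, and Runx1 was lowest at 16.4 ± 1.12 RPKM. In FPI microglia Sall1 at 201 ± 23.8 and Cebpa at 132 ± 16.4 RPKM again came first and Runx1 last at 16.4 ± 1.62 RPKM. Irf8 came next there, at 74.5 ± 1.82 RPKM, with a range apart from that of Spi1 at 63.2 ± 3.62 RPKM. In sham astrocytes the order began with Sall1 at 17.5 ± 3.60 and Bhlhe41 at 9.14 ± 2.49 RPKM and ended with Spi1, whose range overlapped with that of Runx1.

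To ask whether injury altered the lineage program, FPI and sham microglia were compared. None of the 9 factors was called as changed, by a rule that called 2.35% of the 12143 genes tested, and DESeq2 also called none. At an unadjusted p below 0.05 there were 2 members, Sall1 and Maf, both lower, beside 11.3% of all genes and 3.87% in that direction. The log2 differences lay between −0.30 and 0.16, with 4 factors higher and 5 lower and a median of −0.03 against −0.01 over all genes tested. Each 95% interval lay between −0.55 and 0.40, so that in this fit a change of any factor past the log2 limit of 0.6 lay outside its interval. In bulk RNA a smaller share of cells that express a gene and less RNA of it per cell cannot be told apart.

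Maf had the lowest value. Sham microglia libraries 1 to 5 held 675, 676, 689.8, 542 and 589 CPM of Maf, and FPI libraries 1 to 5 held 478, 515, 453, 522 and 586 CPM. The groups overlapped only where FPI library 5 lay above sham library 4. The means were 634 ± 65.1 and 511 ± 50.5 CPM, a log2 difference of −0.30 ± 0.12 (SE) with an unadjusted p of 0.0244 and an adjusted p of 0.314 in edgeR.

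Sall1 followed Maf closely. Its 1295, 1368, 1248, 1170.0 and 1346.5 CPM in sham microglia stood beside 1044, 974, 911, 1145 and 1221 CPM in FPI microglia. Only FPI library 5 lay above the lowest sham library. The log2 difference was −0.26 ± 0.12, with an unadjusted p of 0.0440 and an adjusted p of 0.416 in edgeR.

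Spi1 read 163, 180.0, 158, 179 and 172 CPM in FPI microglia against the 178 to 239.5 CPM of the sham libraries. FPI libraries 2 and 4 lay above sham library 4 at 178 CPM, and all 5 FPI libraries lay below the other 4 sham libraries. The log2 difference was −0.22 ± 0.12, with an adjusted p of 0.524 in edgeR.

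Irf8 was the single member whose groups did not overlap. It read 435, 491, 492, 469 and 483 CPM in sham and 527, 523, 529, 506 and 542 CPM in FPI microglia, so the lowest FPI library was above the highest sham library. Among all genes tested 3.43% had groups that did not overlap, 2.17% with every FPI library above. The difference was small, at 0.16 ± 0.10 on the log2 scale with a 95% interval of −0.05 to 0.38, and the adjusted p in edgeR was 0.637.

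The other 5 factors overlapped between the groups. Mef2c ranged from 421 to 529 CPM in sham and from 445 to 506 CPM in FPI microglia, with a log2 difference of −0.03 ± 0.11. Runx1 averaged 197 CPM in both groups and its log2 difference was 0.02 ± 0.11. Cebpa ranged from 325 to 402 CPM and from 291 to 394 CPM, with a log2 difference of −0.07 ± 0.12. Cebpb, known as a responsive factor in inflammation, ranged from 67 to 95.9 CPM in sham and from 80.7 to 99.9 CPM in FPI, with a log2 difference of 0.14 ± 0.13. Bhlhe41 ranged from 166 to 200.5 CPM and from 155 to 218 CPM, with a log2 difference of 0.06 ± 0.12.

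**Figure D3:**
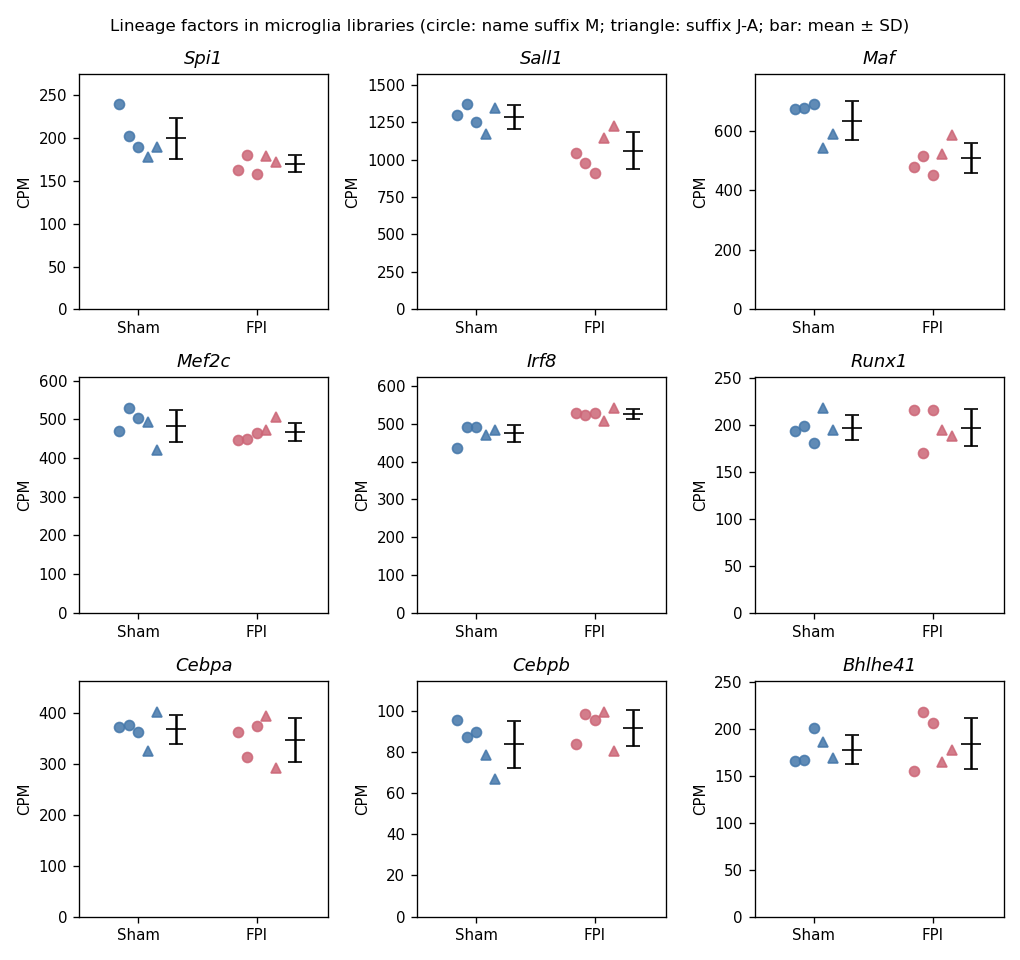
Level of each factor (CPM, axes from 0) in the 5 sham and 5 FPI microglia libraries, each point 1 library, with circles for the name suffix M and triangles for J-A; the bars are the mean ± SD. Maf, Sall1 and Spi1 have overlapping groups with lower FPI means, and all FPI points of Irf8 lie above its sham points.

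**Figure D4:**
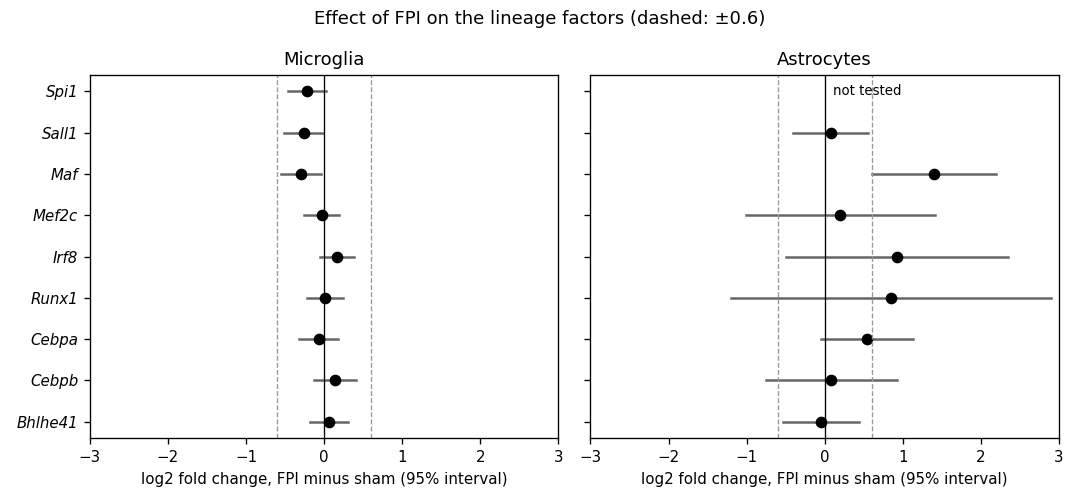
Log2 difference of FPI minus sham with its 95% interval for each factor in microglia (left) and astrocytes (right); dashed lines mark the log2 limit of 0.6 in either direction. All microglia intervals lie inside the dashed lines, whereas the astrocyte intervals are wide and that of Maf lies above 0; Spi1 was below the filter on low counts in astrocytes.

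Maf, Sall1 and Spi1 had lower FPI values mainly in one series of library names. Among the libraries with the suffix M, Maf averaged 680.1 CPM in sham and 482 CPM in FPI microglia, a log2 difference of −0.50 ± 0.13 with an adjusted p of 0.0432 in edgeR, which met the limit on p and not that on size. Among those with the suffix J-A it averaged 566 and 554 CPM, a log2 difference of 0.01 ± 0.16. The difference between these effects was −0.51 ± 0.21, with an unadjusted p of 0.0218 and an adjusted p of 0.385 in edgeR, so the series were not shown to differ. For Sall1 the log2 difference was −0.42 ± 0.13 (adjusted p of 0.113) in the M series and −0.05 ± 0.16 in the J-A series, and for Spi1 it was −0.34 ± 0.14 and −0.03 ± 0.17. For Irf8 it was 0.15 ± 0.13 and 0.18 ± 0.15, and these differed by −0.03 ± 0.20. Over all genes 2 differed between the series at an adjusted p below 0.1, and 10.5% had an unadjusted p below 0.05. This split was made after the data were seen.

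Border macrophages, which share Maf, Spi1 and other members with microglia, moved with the name series. Their marker Mrc1 read 268, 182 and 269.6 CPM in sham and 186, 115 and 84.3 CPM in FPI libraries 1 to 3. In libraries 4 and 5 it read 19.7 and 11.2 CPM in sham and 18.9 and 45.6 CPM in FPI. The sum of the 8 border macrophage markers was 1346, 1276, 1308, 876 and 860 CPM in sham and 1147, 937, 1062, 811 and 786 CPM in FPI. Most of this sum was Stab1, at 879 ± 52.7 CPM in sham and 808 ± 83.3 CPM in FPI microglia. No marker of this list was called, 1 had an unadjusted p below 0.05 in edgeR, 7 of the 8 were lower in FPI, and the part of these cells in the value of Maf was not tested. The 4 monocyte markers that were tested included Fn1 and Ccr2, and all 4 had higher means in FPI, of which Fn1 was called (log2 difference 1.84) and Ccr2 stood at 3.90 ± 1.70 CPM in sham and 4.76 ± 3.43 CPM in FPI microglia.

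Other transcription factors of myeloid cells were read from a list of 42, of which 33 were tested in microglia. None was called in edgeR, 3 in either direction had an unadjusted p below 0.05, 10 were higher and 23 were lower, with a median log2 difference of −0.15 against −0.01 over all genes. The smallest p belonged to Smad3, which carries the TGF-beta signal that maintains homeostatic microglia. It averaged 196 ± 16.3 CPM in sham and 143 ± 23.3 CPM in FPI microglia, and every FPI library lay below every sham library. Its log2 difference was −0.45 ± 0.12 with an adjusted p of 0.0775 in edgeR, again past the limit on p alone. Bhlhe40, the close relative of Bhlhe41, came next at 3.73 ± 1.42 CPM in sham and 8.93 ± 4.94 CPM in FPI microglia (adjusted p of 0.153).

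The homeostatic program linked to SALL1 was described with a list of 20 genes, 19 of them in the table and tested. Of these, 3 were called and all 3 fell, where the rule called 0.214% of all genes as lower, 16 of 19 were lower, and the median log2 difference was −0.32 against −0.01 over all genes. Ecscr fell from 134 ± 14.8 to 87.5 ± 19.4 CPM (log2 difference −0.60 ± 0.15, adjusted p of 0.0422 in edgeR). P2ry13, a purinergic receptor of microglia, fell from 688 ± 108 to 432 ± 112 CPM (−0.65 ± 0.17, adjusted p of 0.0493). Slc2a5, the fructose transporter, fell from 307 ± 35.6 to 196 ± 58.0 CPM (−0.63 ± 0.17, adjusted p of 0.0651). The values lay further apart in the libraries of suffix M. P2ry13 read 867, 686 and 680.2 CPM in sham and 354, 381 and 322 CPM in FPI libraries 1 to 3, but 613 and 595 CPM and 530.0 and 572 CPM in libraries 4 and 5. Slc2a5 read 299, 356 and 296 CPM against 146, 169.9 and 146 CPM in the former, and 260.4 and 326 CPM against 251.1 and 265 CPM in the latter. Ecscr read 119, 136 and 157 CPM against 57.6, 87.4 and 86.1 CPM, and 124 and 134 CPM against 111 and 95.7 CPM. The test of a difference between the series covered these 3 genes with all others, but their single results are not given here. Sall1 itself stood at −0.26 over all 10 libraries, beside the median of −0.32 of the list. These 3 genes were named for passing the log2 limit of 0.6, so their sizes cannot be set against that of Sall1.

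Target genes of PU.1 and IRF8 showed another balance of directions. All 20 genes of that list were tested, none was called, and 15 were higher in FPI microglia, with a median log2 difference of 0.16. The smallest p belonged to Fcer1g, the common gamma chain of Fc receptors, at 195 ± 28.5 CPM in sham and 287 ± 86.5 CPM in FPI microglia (adjusted p of 0.156 in edgeR). Csf2ra, a chain of the GM-CSF receptor, stood at 50.5 ± 12.3 and 69.3 ± 10.1 CPM (adjusted p of 0.194). At an unadjusted p below 0.05 there were 5 members of this list higher and none lower, beside 7.47% of all genes higher.

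In astrocytes 8 of the 9 factors passed the filter on low counts, and Spi1 did not. None of the 8 was called for FPI against sham by edgeR or DESeq2, by a rule that called 1 of 13741 genes (0.00728%), and 1, Maf, had an unadjusted p below 0.05 beside 2.32% of all genes. No member had groups that did not overlap, against 0.713% of all genes. The log2 differences of 7 factors were above 0, with a median of 0.37 against −0.01 over all genes tested. Intervals were wide at these low levels, up to −1.20 to 2.90 for Runx1.

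Maf read 6.23, 3.04, 2.40, 3.59 and 4.92 CPM in sham and 14.0, 11.9, 5.35, 7.03 and 13.6 CPM in FPI astrocytes. Only sham library 1 exceeded any FPI library, which was FPI library 3. The log2 difference was 1.40 ± 0.37 with a 95% interval of 0.60 to 2.19, an unadjusted p of 0.00238 and an adjusted p of 0.999 in edgeR. In the fit of all 20 libraries, which shares its estimate of the spread with microglia, Maf was called at a log2 difference of 1.37 and an adjusted p of 0.0194.

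Spi1 was found by 0, 0, 3, 0 and 0 reads in sham and by 33, 14, 0, 9 and 9 reads in FPI astrocyte libraries 1 to 5. FPI library 3 was as empty as most sham libraries. The pooled ratio of 65 reads to 3 at equal depth was 24.7, with a 95% interval of 8.10 to 123 for counting error only. With every gene that had at least 1 count in the fit, the adjusted p of Spi1 was 0.887 in edgeR, and in the fit of all 20 libraries it was called.

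The microglia markers moved with both genes. They summed to 71.9, 52.0, 38.9, 41.2 and 43.0 CPM in sham and to 140.2, 161, 61.8, 66.1 and 224 CPM in FPI astrocyte libraries 1 to 5. Of the 12 markers 9 passed the filter on low counts. All 9 were higher in FPI, 7 with an unadjusted p below 0.05 in edgeR, and none was called. Markers such as C1qa, at 0.37 CPM in sham and 9.62 CPM in FPI, pass only through the FPI libraries, so this count was partly set by the filter. Tmem119, Siglech and Gpr34 did not pass. Their means in sham and FPI were 0.82 and 1.69, 0.42 and 0.56, and 0.15 and 1.77 CPM. Relative to microglia of the same condition these sums were 0.132 to 0.244% in sham and 0.227 to 0.821% in FPI. In FPI astrocytes the single markers stood at 0.0773 to 0.878% of the microglial level, Irf8 at 0.668%, Spi1 at 0.897%, Runx1 at 1.41%, Maf at 2.03% and Cebpa at 2.86%. Irf8 thus lay within the range of the markers, Spi1 just above it, and Maf above it in FPI as in sham. The part of microglial RNA in the values of Spi1 and Maf was not tested.

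Sall1, Cebpb and Bhlhe41, with astrocyte levels far above that share, had log2 differences of 0.08 ± 0.22, 0.08 ± 0.39 and −0.05 ± 0.22 in FPI against sham astrocytes. Bhlhe41 read 86.2 CPM in FPI library 1 and 46.9 to 55.1 CPM in the other 4, and in sham it was likewise highest in library 1. Cebpa averaged 6.97 ± 1.98 CPM in sham and 9.93 ± 2.59 CPM in FPI, a log2 difference of 0.54 ± 0.27. Irf8 averaged 3.51 ± 3.66 CPM in FPI astrocytes, with library 5 at 9.88 CPM and the other 4 at 0.70 to 2.86 CPM.

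The gene called in astrocytes was Ctss, the lysosomal protease cathepsin S, a member of the list of PU.1 and IRF8 targets. It rose from 1.17 ± 0.89 to 26.1 ± 13.9 CPM, a log2 difference of 4.52 ± 0.60 with an adjusted p of 0.0798 in edgeR, and stood at 4825 ± 525 CPM in sham microglia. Of the 20 targets 7 passed the filter on low counts in astrocytes. All 7 were higher in FPI, 5 with an unadjusted p below 0.05 in edgeR. A gene nearly absent in sham, such as Itgam at 0.54 CPM in sham and 6.65 CPM in FPI, passes the filter only through the FPI libraries. The shared direction was therefore partly set by the filter, and no conclusion is drawn from it. The call of Ctss was lost with robust fits, with FPI libraries 2 and 5 summed, at a limit of 0.05 on the adjusted p, and on leaving out any of 7 single libraries, FPI 2, 4 or 5 or sham 1, 2, 3 or 4, and with 10 counts required in every library the gene did not pass the filter. Of the other myeloid transcription factors 27 were tested in astrocytes, 21 were higher and none was called. Cebpd, a further C/EBP factor, stood at 12.9 ± 3.82 CPM in sham and 24.1 ± 8.02 CPM in FPI astrocytes (adjusted p of 0.999 in edgeR).

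Whether injury acted differently in the cell types was tested directly. At an adjusted p below 0.1 the effect of FPI differed for 2 of the 9 factors, Spi1 and Maf, and for 0.199% of the 15077 genes tested, while 3 factors, with Cebpa, and 7.02% of all genes had an unadjusted p below 0.05. For Spi1 the effect in microglia minus that in astrocytes was −4.55 ± 0.87 on the log2 scale (adjusted p of 0.0324 in edgeR), a size that rests on the nearly empty sham astrocyte libraries. For Maf it was −1.68 ± 0.34 (adjusted p of 0.0527), the sum of a lower mean in FPI microglia and a higher mean in FPI astrocytes, neither of them called in the fit of its own cell type. The call of Maf was lost with an adjusted p of 0.214 when genes needed 10 counts in every library, and with one of 0.109 when FPI astrocyte libraries 2 and 5 were summed as 1 animal. It was also lost on leaving out any of 11 single libraries: sham or FPI microglia 1, 2 or 3, FPI astrocytes 2 or 5, or sham astrocytes 2, 3 or 4, with adjusted p between 0.105 and 0.131. Spi1 kept its call in all 20 of these fits. For the other 7 factors a difference between the cell types was not shown, with log2 values between −0.80 and 0.13.

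The genes most like each factor over the 20 libraries were named by the root mean square difference of centred log2 CPM. Spi1 was nearest to Cd84 at 0.42 and Irf8 to Igsf6 at 0.51, both receptors of leukocytes. Sall1 was nearest to Daglb, an enzyme of endocannabinoid synthesis, at 0.26, and next to Abcb4, a phospholipid transporter, at 0.26. Maf was nearest to Rassf5 at 0.47, Mef2c to Mylip at 0.32, Runx1 to Dennd1c at 0.62, Cebpa to Lair1 at 0.36 and Cebpb to Btg2 at 0.32. Bhlhe41, with its low contrast between the cell types, was nearest to Heatr1 and Mtdh, both at 0.20 to 0.21. For comparison, the median over all genes was 1.20 for Bhlhe41 and 4.38 for Spi1. This measure is led by the difference between the cell types, which all 20 libraries share.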

How the data were processed

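Bulk RNA-seq counts of 20 libraries were used, 5 each of sham and FPI microglia and astrocytes. The authors prepared libraries with a strand-keeping total RNA kit for picogram input (SMARTer Pico), aligned reads to mm10 (GRCm38.p6) with HISAT2 2.1.0, and deposited whole-number counts of reads per Ensembl gene without normalization; the labels' processing notes name featureCounts, and the strand setting is not given in the sources used here. Reads in exons shared with a gene on the opposite strand may be misassigned.

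Positions and exonic lengths came from GENCODE M21 (GRCm38). Counts were filtered (filterByExpr), scaled (TMM) and tested by the quasi-likelihood test of edgeR 4.0.16 in R 4.3.3. Each cell type was fitted alone for FPI against sham, and all 20 libraries together for the contrast of cell types and the difference in FPI effect. A gene was called at a Benjamini-Hochberg adjusted p below 0.1 over all genes tested with an absolute log2 fold change above 0.6, and the difference in effect at that p alone. SE is that of the log2 fold change, and intervals are 95%. CPM and RPKM were computed from the counts on the TMM scale. Intervals of pooled read ratios cover counting error only. Medians of all genes in the contrast of cell types moved from −0.15 to −0.24 with DESeq2 scaling and to −0.05 with sham libraries alone.

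The members and lists were chosen with earlier results of these data known. Named were all members, genes of 3 lists called in either cell type or, with none called, the 2 of smallest p, and the 2 nearest genes of each member, of which the text gives at least the first. A gene that this rule names is not reported here. Alternatives were DESeq2 1.42.0, other scaling and filters, robust fits, a replicate block and leaving out each library. On simulated counts for the 12143 genes of the microglia fit, 62 of 100 genes changed by a log2 of 1 and 89 of 100 changed by a log2 of 2 were called, with 10 false calls; for the 13741 of the astrocyte fit these were 30, 80 and 11. Labels did not say whether libraries came from separate animals in every case, so p-values measure the spread between libraries.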

Additional observations from a re-analysis of the deposited data

Results flagged for a closer look

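Of 36 groups of 5 libraries, 3 held a value far from the others, where chance alone gives about 1 in 20. Spi1 was at 0.31 CPM in sham astrocyte library 3 and at 0 in the other 4. Irf8 was at 9.88 CPM in FPI astrocyte library 5, the library with the microglia suffix in its name and the highest sum of microglia markers, against 0.70 to 2.86 CPM in the other 4. Bhlhe41 was at 86.2 CPM in FPI astrocyte library 1, and the next was 55.1 CPM.

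The effect of FPI differed between the cell types for Spi1, by −4.55 on the log2 scale, and for Maf, by −1.68, at adjusted p of 0.0324 and 0.0527 in edgeR. Both genes were higher in FPI astrocyte libraries 1, 2 and 5, which also held the 3 highest sums of microglia markers, 140.2 to 224 CPM. The part of these markers' source in either difference was not tested.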

How the results depend on the processing

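All 9 members were called as higher in sham microglia than in sham astrocytes under every alternative that tested them, and none was called for FPI in microglia under any. Genes called in microglia, 285 in all, were 121 with all 20 libraries in 1 fit, 62 within the series J-A (split made after seeing the data), and 177 to 423 leaving out single libraries. Genes called in astrocytes were 23 with DESeq2, 9 with every gene of at least 1 count, 11 with the replicate block, 53 with all 20 libraries (2 of them members), and 0 with 10 counts in every library, robust fits, libraries 2 and 5 summed or a p limit of 0.05; leaving out single libraries gave 0 to 3. The contrast of cell types called 9175 genes, and 4551 with 10 counts in every library. Differences in FPI effect numbered 30 genes, 191 with DESeq2, 1 with 10 counts in every library, 69 without the astrocyte libraries of 3 animals, and 21 to 48 leaving out single libraries. Members among them were 2, but 0 with 10 counts in every library (which drops Spi1), 1 with libraries 2 and 5 summed, 1 at a p limit of 0.05, and 1 to 2 leaving out single libraries.

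Signs turned for values that the fit reported above did not call. In microglia these were Runx1 with all 20 libraries (−0.001) and, in the series J-A, Bhlhe41 (−0.008), Maf (0.012), Mef2c (0.139) and Runx1 (−0.062); leaving out single libraries gave −0.034 to 0.069 for Runx1. In astrocytes they were Mef2c with the replicate block (−0.043) and Cebpb with libraries 2 and 5 summed (−0.115), and leaving out single libraries gave −0.234 to 0.288 for Cebpb, −0.265 to 0.099 for Bhlhe41, −0.118 to 0.166 for Sall1 and −0.294 to 0.541 for Mef2c. For the difference in effect they were Cebpb without the astrocyte libraries of 3 animals (−0.105), and leaving out single libraries gave −0.135 to 0.361 for Cebpb, −0.08 to 0.32 for Bhlhe41, −1.046 to 0.068 for Irf8 and −0.588 to 0.241 for Mef2c. Causes were not tested. Same-numbered sham and FPI libraries deviated together by correlations of −0.066 to 0.092 in microglia and −0.009 to 0.452 in astrocytes, with 4 of 5 astrocyte pairs at 0.245 or more and 1 near 0, and not every library was nearest to its own number. In astrocytes this hints at shared numbers, but no source says so and 1 pair stayed below 0.1, so the numbers were not used as a pairing; the replicate block called the same number of members. At 0 to 33 reads per library, Spi1 in astrocytes is limited by depth.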

Other observations

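Close relatives of the members, picked here after their values were seen, had patterns of their own. Bhlhe40 was the reverse of Bhlhe41 between the cell types: it averaged 150 ± 59.6 CPM in sham astrocytes and 3.73 ± 1.42 CPM in sham microglia, a log2 difference of −5.33 ± 0.39 with no overlap, whereas Bhlhe41 was higher in microglia.

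Sall3, a relative of Sall1, averaged 242 ± 19.5 CPM in sham and 192 ± 24.8 CPM in FPI microglia, with every FPI library below the sham libraries and an adjusted p of 0.207 in edgeR. It was 2.00 higher on the log2 scale in sham microglia than in sham astrocytes, against 3.80 for Sall1.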
